A study of Homo sapiens with 6 samples.

Results

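Complement is the protein cascade of innate immunity that tags microbes and altered cells for removal, and 9 of its components and regulators were followed here in A549 cells. They are C1R, C1S, C3 and CFB, which are components, SERPING1, which blocks the C1 proteases, CFI, which cuts C3b, and the membrane regulators CD46, CD55 and CD59. Each was taken as the row whose gene symbol equals the member's name, and all 9 had a row among the 29845 genes of the count table. A549, a long-established cell line from a human lung adenocarcinoma, was transfected with Lipofectamine and either the empty pIRES-hrGFP-1a plasmid (control, 3 libraries) or the same plasmid carrying FLAG-tagged TFAM (TFAM-OE, 3 libraries). TFAM is a mitochondrial DNA-binding protein that packages the mitochondrial genome and regulates its transcription. The study asked which transcripts change when TFAM is overexpressed. The transfection was transient, and the share of cells that took up the plasmid was not analysed here. Polyadenylated RNA was sequenced from libraries made with a stranded kit. The labels number the replicates without saying whether they were separate cultures, while the study describes them as biological, so the p-values measure the spread between these libraries.

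In the classical pathway, C1r and C1s are serine proteases that sit with C1q in the C1 complex, where C1r activates C1s and C1s cleaves C4 and C2. C3 is the central component at which all routes meet, and factor B joins C3b to form the convertase of the alternative pathway. Human cells protect themselves with C1 inhibitor (SERPING1), factor I with its cofactor CD46, decay-accelerating factor CD55 and the inhibitor of the membrane attack complex, CD59. Liver makes most circulating complement, but lung epithelial cells also make several of these proteins, and interferons and inflammatory cytokines are known inducers of some of them.

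Library totals ran from 26650854 to 37321956 reads, and their medians were 32430766 (control) and 33579510 (TFAM-OE). The control libraries held 2555, 1878 and 2663 reads of TFAM itself, against 2291, 2808 and 2492 in TFAM-OE. The groups overlapped, and TFAM's log2 fold change was 0.08 (standard error, SE, 0.10, adjusted p = 0.623 in edgeR's quasi-likelihood test), so the TFAM-OE group is named below by its label. The study checked the tagged protein by western blot against FLAG, which is not part of these data. Of the epithelial list, 5 of 8 genes reached 1 FPKM (fragments scaled to transcript length and library size) in at least 1 library. These were KRT7, KRT8, KRT18, KRT19 and CDH1, while EPCAM, NKX2-1 and SFTPC did not. CDH1 did so only in TFAM-OE replicate 3 (1.48 FPKM), with at most 0.87 FPKM in the other libraries. The same rule was used for the lists of other cell types. The summed epithelial level was 2598 to 2799 FPKM in the control libraries and 2451 to 2851 FPKM in the libraries labelled TFAM-OE.

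Promoter sequence was read for the members from RefSeq (GRCh38.p14), as 300-base windows of which 250 lie before the start. Entries matched 6 of the 9 members with 11 windows, and C1S, SERPING1 and C3 were not matched. On both strands, the interferon-stimulated response element core GAAANNGAA (ISRE) was found in 8.11% of all 35116 windows, the gamma-activated sequence TTCNNNGAA (GAS), which reads alike on both strands, in 7.66%, and the NF-kappaB motif in 11.3%. Of the 11 windows of the members, 1 held the first, 4 the second and 1 the last. By gene, these were 1, 3 and 1 members, since the windows of a gene can overlap and hold the same match. The shares above are per window and none was computed per gene, so the counts by gene have no background. The matches are shown with 10 bases on each side, with the motif in capitals, because interferon- and cytokine-activated factors bind such elements.
C1R GAS, chr12:7091961-7091989, minus strand: gccagtcctaTTCCTGGAAggggagggga
CFB ISRE, chr6:31945946-31945974, plus strand: cttctgcagtTTCTGTTTCcttgactggc
CFB NF-kappaB, chr6:31945973-31946002, plus strand: gcagctcagcGGGGCCCTCCcgcttggatg
CFB GAS, chr6:31945993-31946021, plus strand: cgcttggatgTTCCGGGAAagtgatgtgg
CD59 GAS, chr11:33736589-33736617, minus strand: ccacccggccTTCTCAGAAcctgggccag

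The C1R match begins 86 bases before the second of its start sites and lies in an exon of a longer C1R transcript in GENCODE 44. The CFB matches begin 139, 112 and 92 bases before its RefSeq start, with the ISRE on the strand opposite to the gene. That start and the matches lie within the GENCODE 44 span of CFB, which begins further upstream at 31945650. The GAS stretch and most of the NF-kappaB stretch lie in an annotated CFB exon. The CD59 match begins 128 bases before its first start.

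The members spanned a wide range of transcript levels. In the control, mean FPKM followed the order C1R, CD59, C1S, C3, CD46, CD55, SERPING1, CFB and CFI. The ranges of the neighbours C1R and CD59, C1S and C3, and SERPING1 and CFB overlapped in that order. In the libraries labelled TFAM-OE the order was CD59, C3, C1R, CD46, C1S, CD55, CFB, SERPING1 and CFI, with overlapping ranges for C1R and CD46, for CD46 and C1S and for SERPING1 and CFI. C1R thus stood first by mean in the control and behind CD59 and C3 in the other group.

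The 2 C1 proteases and the inhibitor of C1 fell in the libraries labelled TFAM-OE, and CD55 fell by a smaller amount. Of the 9 members, 8 passed the filter on low counts, since CFI had at most 6 reads in a library, and SERPING1 passed only through its control libraries. At an adjusted p below 0.05 over 16555 genes, 4 members were lower, against 4.81% of all genes tested. None was higher, against 3.48%, and edgeR, DESeq2, edgeR's exact test and limma-voom each counted 0 higher. At an unadjusted p below 0.05, edgeR counted 6 lower and 0 higher, against 13.2% and 12.2% of all genes. C1R, C1S and SERPING1 also had a fold change of at most 0.5, which 2.07% of all genes shared, and 0 members rose by at least 2-fold, against 0.447%. On the CPM scale (reads scaled to library size), the groups were fully apart for 6 of the 8 members with TFAM-OE below, as for 15.8% of all genes. The opposite arrangement held for 0 members and for 15.8% of genes. Over the 8 members the median log2 fold change was -0.69, and over all genes tested it was -0.0084. SERPING1 is part of each of these lower counts and of the median, though it entered through the control group alone. With at least 10 reads in every library, which removed SERPING1, 3 of 7 tested members were lower, as were 764 of 15211 genes. In RNA from whole cultures, fewer cells that make a transcript cannot be told apart from less of it per cell.

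**Figure D1:**
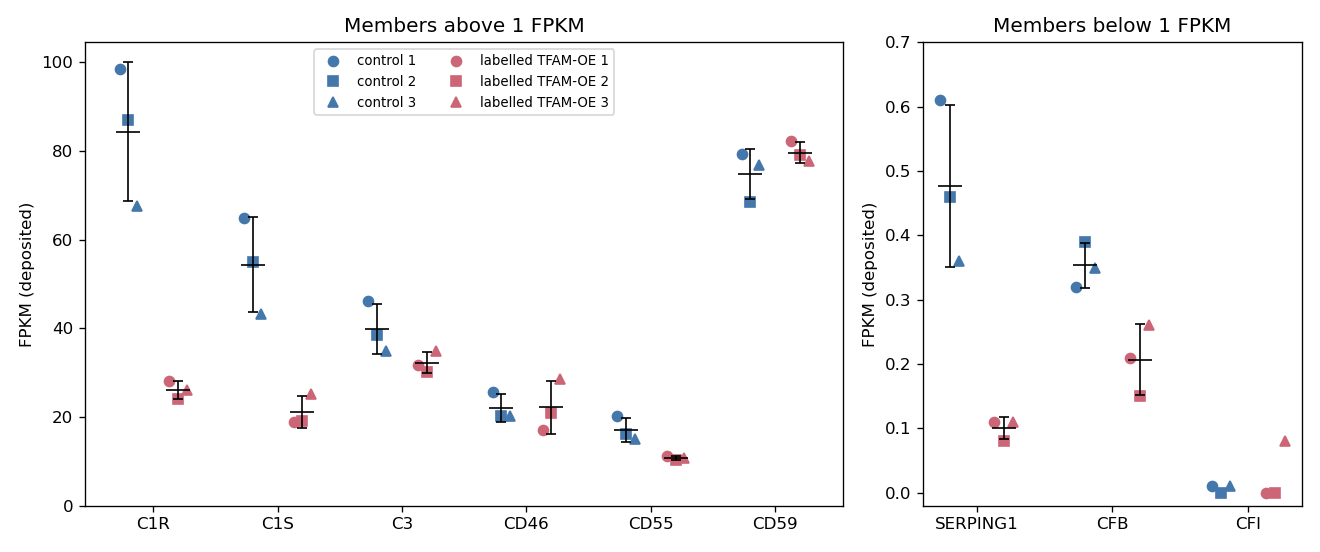
FPKM of the 9 members in each library (y axis, linear), with members above 1 FPKM on the left and those below on the right. Blue marks are control libraries and red marks those labelled TFAM-OE, with circles, squares and triangles for replicates 1, 2 and 3, and black bars give the mean and SD of 3 libraries except for CFI. C1R, C1S, SERPING1, CD55 and CFB separate by group, C3 nearly touches, and CD46 and CD59 overlap.

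C1R, the protease that activates C1s, spans 7080214 to 7092540 on chromosome 12 of GRCh38, minus strand. Its level was 98.61, 86.91 and 67.66 FPKM in control replicates 1, 2 and 3 and 28.14, 23.94 and 26.06 FPKM in the libraries labelled TFAM-OE. The lowest control library was more than 2-fold above the highest library of the other group. The means were 84.4 ± 15.6 FPKM (SD, n = 3) and 26.0 ± 2.10 FPKM (SD, n = 3). Its log2 fold change was -1.67 (SE 0.14, adjusted p = 0.000113 in edgeR's quasi-likelihood test), a fold of 0.315 whose 95% interval ran from 0.255 to 0.390. By size it ranked 164th among the lowest log2 fold changes of the 16555 genes. All 6 fits that left out 1 library passed, at log2 fold changes between -1.79 and -1.56.

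C1S, whose product cleaves C4 and C2, lies beside C1R on the plus strand from 6988259 to 7071032, and 9181 bases separate the 2 genes. FPKM values were 64.85, 54.95 and 43.28 in the control and 18.91, 19.11 and 25.18 in TFAM-OE. These groups did not overlap either, and control replicate 1 was again the highest library. The means were 54.4 ± 10.8 FPKM (SD, n = 3) and 21.1 ± 3.56 FPKM (SD, n = 3). The log2 fold change was -1.35 (SE 0.14, adjusted p = 0.000552 in edgeR), a fold of 0.393, with 0.316 and 0.489 as the 95% bounds. The fits without 1 library gave -1.47 to -1.22 and always passed.

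The proteases did not keep one ratio in all libraries. C1R exceeded C1S by 1.52-, 1.58- and 1.56-fold in FPKM in the control, and by 1.49-, 1.25- and 1.03-fold in TFAM-OE replicates 1, 2 and 3. The control ratios were nearly alike, whereas those of the other group spread downward, and the groups did not overlap by a narrow margin. The pair together made up 48.7%, 49.6% and 42.9% of the summed FPKM of the 9 members in the control and 24.8%, 23.4% and 25.2% in TFAM-OE. The summed level itself was 293.4 ± 39.1 FPKM (SD, n = 3) in the control and 192.3 ± 10.3 FPKM (SD, n = 3) in TFAM-OE. These sums describe the members and were not tested.

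**Figure D2:**
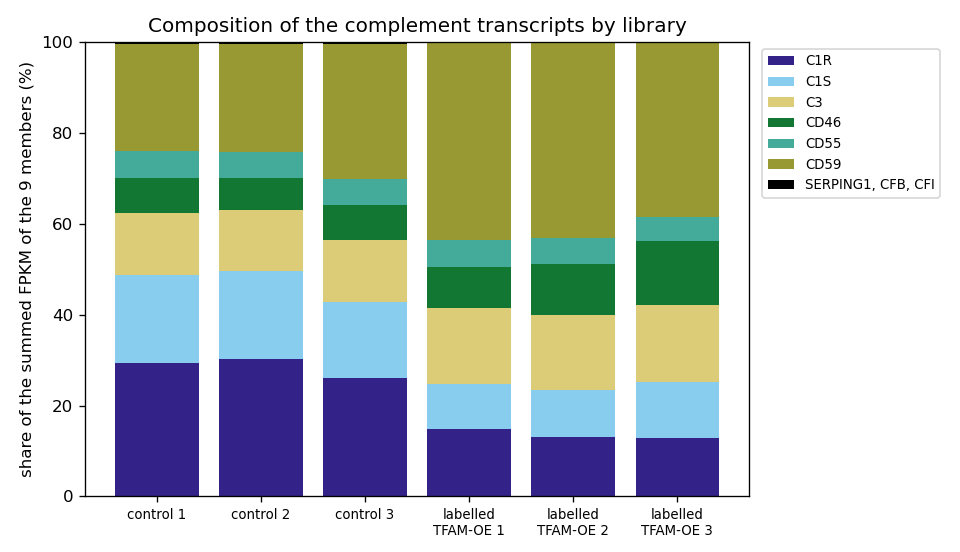
Share of the summed FPKM of the 9 members taken by each gene (y axis, percent) in each of the 6 libraries (x axis). C1R and C1S together fill 42.9% to 49.6% of the bar in the control libraries and 23.4% to 25.2% in the libraries labelled TFAM-OE. CD59 takes the largest share in the libraries labelled TFAM-OE and also in control replicate 3.

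SERPING1 encodes C1 inhibitor, which traps activated C1r and C1s, and lies on the plus strand of chromosome 11 from 57597387 to 57619171. Its transcript was scarce, with 58, 36 and 39 control reads against 11, 9 and 9 in TFAM-OE, which is 0.61, 0.46 and 0.36 FPKM against 0.11, 0.08 and 0.11 FPKM. All 3 control libraries stood well above the others. SERPING1 changed on the log2 scale by -2.20 (SE 0.31, adjusted p = 0.00348 in edgeR), a fold of 0.217 (95% interval 0.134 to 0.351). It entered the test only through its control libraries, where it was higher, so its change is not ranked among the members. The fits without 1 library gave SERPING1 values between -2.37 and -1.99, and all 6 passed. The level of SERPING1 was 0.341% ± 0.0282 (SD, n = 3) of that of C1R and C1S summed in the control and 0.211% ± 0.0242 (SD, n = 3) in TFAM-OE, without overlap. For SERPING1, counting error alone would give a coefficient of variation of 15.0% in the control and 32.2% in TFAM-OE. Its CPM varied by 24.1% and 16.4%, so the SD of this ratio in TFAM-OE understates its error. A minimum of 10 reads in every library removes this gene from the test.

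C3, which is cleaved to C3a and C3b when the cascade is triggered, lies on the minus strand of chromosome 19 from 6677704 to 6730562. C3 reached 46.11, 38.51 and 34.92 FPKM in the control and 31.67, 30.16 and 34.82 FPKM in TFAM-OE. Control replicate 3 and TFAM-OE replicate 3 were almost equal. The means were 39.8 ± 5.71 FPKM (SD, n = 3) and 32.2 ± 2.38 FPKM (SD, n = 3), and the difference of -0.28 in log2 (SE 0.11, adjusted p = 0.13 in edgeR) did not pass. Its fold of 0.823 had a 95% interval from 0.699 to 0.969. Set against C3, C1R and C1S summed stood at 3.47 ± 0.262 times its FPKM (SD, n = 3) in the control and 1.46 ± 0.0308 times (SD, n = 3) in TFAM-OE. C3 passed in none of 18 alternative fits, which gave an adjusted p from 0.0782 to 0.428.

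CFB encodes factor B, the protease component of the alternative pathway, and lies on the plus strand of chromosome 6 from 31945650 to 31952086. Its control reads were 35, 35 and 44, and those in TFAM-OE 24, 19 and 25, or 0.32, 0.39 and 0.35 FPKM against 0.21, 0.15 and 0.26 FPKM. The groups did not overlap, but the counts were small. CFB did not pass, at a log2 fold change of -0.76 (SE 0.27, adjusted p = 0.109 in edgeR), which is a fold of 0.592 (95% interval 0.393 to 0.892).

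The CFB count may depend on how reads in shared exons were assigned. A readthrough gene with the identifier ENSG00000244255 runs on the same strand from 31927698 to 31952048, across C2 and CFB, and shares 2249 exon bases with CFB, which are 42.3% of CFB's and 55.3% of its own. It was named after its values were seen. Its reads numbered 906, 572 and 621 (control) and 300, 295 and 322 (TFAM-OE), far more than those of CFB, or of C2 with its 11 to 29 reads. The readthrough gene was lower in each library labelled TFAM-OE, at -1.21 in log2 (SE 0.18, adjusted p = 0.00501 in edgeR). When its reads were added to those of CFB, an alternative chosen after seeing the data, the log2 fold change was -1.18 (SE 0.18, adjusted p = 0.00481 in edgeR). How many of these reads came from CFB transcripts was not tested, and the same assignment bears on C2.

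**Figure D3:**
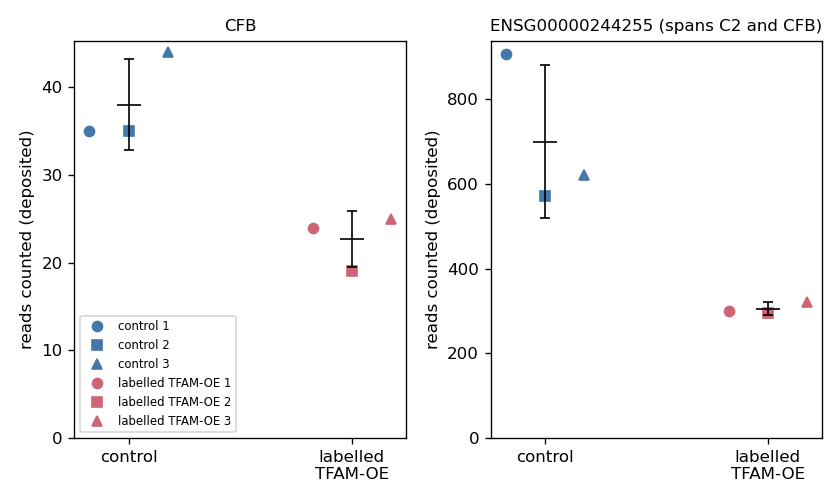
Reads counted per library (y axis, linear, from 0) on CFB on the left and on the readthrough gene that spans C2 and CFB on the right, by group (x axis). Marks are libraries as named in the legend, and bars give the mean and SD of 3 libraries. The readthrough gene holds 295 to 906 reads and CFB 19 to 44, and both are lower in the libraries labelled TFAM-OE.

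CFI encodes factor I, the protease that cuts C3b and C4b, and lies on the minus strand of chromosome 4 from 109731008 to 109802150. Control replicates 1, 2 and 3 held 1, 0 and 1 of its reads, and TFAM-OE replicates 1, 2 and 3 held 0, 0 and 6, so that TFAM-OE replicate 3 held most of its reads. The filter kept it out of the test, and in edgeR without a filter it did not pass (adjusted p = 0.637), so no difference was detectable at this depth. CFB, SERPING1 and CFI were the members below 1 FPKM in every library.

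The membrane regulators did not move alike. CD55, which speeds the decay of C3 convertases, lies on the plus strand of chromosome 1 from 207321519 to 207386804. CD55 stood at 20.10, 16.23 and 14.92 FPKM in the control and at 11.28, 10.33 and 10.82 FPKM in TFAM-OE, without overlap. The log2 fold change was -0.63 (SE 0.12, adjusted p = 0.013 in edgeR), a fold of 0.646 (95% interval 0.538 to 0.775). This call depended on single libraries. Without control replicate 1 the log2 fold change was -0.52 (adjusted p = 0.0672 in edgeR), without control replicate 2 it was -0.65 (adjusted p = 0.0642 in edgeR), and without TFAM-OE replicate 2 it was -0.60 (adjusted p = 0.0882 in edgeR). The direction was the same in all of them.

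CD46, the cofactor with which factor I cuts C3b, lies on the same chromosome and strand from 207752037 to 207795513. CD46 gave 25.67, 20.31 and 20.12 FPKM in the control and 17.02, 20.77 and 28.65 FPKM in TFAM-OE. TFAM-OE replicates 1 and 3 were the lowest and the highest of the 6 libraries. Between the groups it differed by 0.02 in log2 (SE 0.15, adjusted p = 0.948 in edgeR), with a 95% interval of the fold from 0.802 to 1.284. The log2 value was -0.15 without TFAM-OE replicate 3 and 0.15 without TFAM-OE replicate 1.

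CD59, which keeps C9 out of the membrane attack complex, lies on the minus strand of chromosome 11 from 33703010 to 33736479. CD59 values were 79.30, 68.44 and 76.82 FPKM in the control and 82.22, 79.05 and 77.64 FPKM in TFAM-OE. The groups overlapped, with control replicate 2 the lowest library. Its difference was 0.12 in log2 (SE 0.10, adjusted p = 0.506 in edgeR), with a 95% interval of the fold from 0.928 to 1.266.

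The summed level of CD46, CD55 and CD59 was 114.0 ± 10.2 FPKM (SD, n = 3) in the control and 112.6 ± 3.9 FPKM (SD, n = 3) in TFAM-OE, and the groups overlapped. Within that sum, the share of CD55 was 16.1%, 15.5% and 13.3% in the control and 10.2%, 9.38% and 9.24% in TFAM-OE. The share of CD55 was thus lower in every library labelled TFAM-OE, while those of CD46 and CD59 overlapped between the groups.

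**Figure D4:**
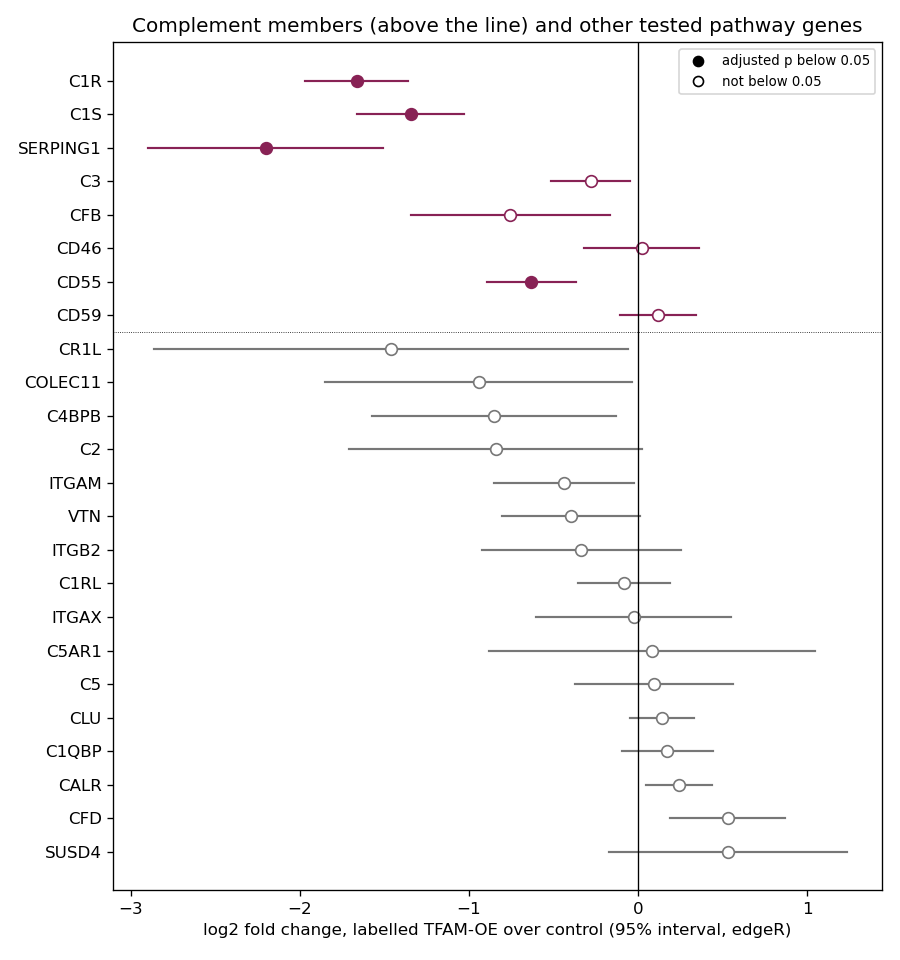
Log2 fold change of the libraries labelled TFAM-OE over the control with its 95% interval (x axis, edgeR) for the 8 tested members above the dotted line and 16 other complement genes below it. Filled points passed an adjusted p of 0.05. C1R, C1S, SERPING1 and CD55 are filled among the members, and the 16 other genes shown are open.

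The other genes of the pathway reported here were too scarce to test or did not pass. Of these 53, 39 had a row in the count table, 19 had under 10 reads in every library, and 16 were tested. In edgeR 0 were lower and 0 higher, against 4.81% and 3.48% of all genes, and these counts describe only the genes reported, not the whole list. At an unadjusted p below 0.05 the counts were 4 lower and 2 higher, against 13.2% and 12.2% of all genes, and the 16 genes had a median of -0.06 in log2. Of the lower genes, CR1L and C4BPB passed the filter only through their control libraries, with 1 to 10 and 10 to 15 reads in TFAM-OE. Their part in the lower count is therefore not read as a result. DESeq2, edgeR's exact test and limma-voom each counted 0 lower. The first 2 of these counted 1 higher, CFD, and limma-voom counted 0. Without control replicate 3 edgeR counted 1 lower, COLEC11, without TFAM-OE replicate 1 it counted 1 lower, CR1L, and without TFAM-OE replicate 3 it counted 1 higher, CFD. COLEC11 had 17 to 50 reads in the control libraries and 15 to 19 in TFAM-OE, so its groups overlapped with all libraries kept. CR1L had 11 to 13 reads in the control and 1 to 10 in TFAM-OE. Both calls thus rest on few reads and on leaving out 1 library.

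CFD encodes factor D, which cleaves factor B, and was measured at 5.68, 6.28 and 6.71 FPKM in the control and at 9.65, 8.86 and 7.95 FPKM in TFAM-OE. All libraries labelled TFAM-OE were above all control libraries, by 0.53 in log2 (SE 0.15, adjusted p = 0.0606 in edgeR). The gene shares 255 exon bases with MED16 on the opposite strand, and no source used here says whether the counting used strand.

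The most abundant genes of the list did not pass. C1QBP, a binding protein of C1q that resides mainly in mitochondria, averaged 338.6 FPKM in the control and 375.0 FPKM in TFAM-OE (log2 fold change 0.17, adjusted p = 0.402 in edgeR). Calreticulin (CALR), a chaperone of the endoplasmic reticulum that also binds C1q, averaged 287.0 and 333.8 FPKM (log2 fold change 0.24, adjusted p = 0.119 in edgeR). Clusterin (CLU), which binds terminal complexes, averaged 65.4 and 70.9 FPKM (log2 fold change 0.14, adjusted p = 0.33 in edgeR). C1RL, a neighbour and relative of C1R, averaged 4.83 and 4.50 FPKM (log2 fold change -0.08, adjusted p = 0.709 in edgeR). It shares 672 exon bases with C1R and had 596 to 818 reads, against at least 2446 for C1R. Vitronectin (VTN) had a log2 fold change of -0.40 (adjusted p = 0.21 in edgeR) and the terminal component C5 one of 0.09 (adjusted p = 0.822 in edgeR).

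Some libraries were at the extremes for several members. Control replicate 1 was the highest control library by CPM for C1R, C1S, SERPING1, C3, CD46 and CD55, while it was so for 37.3% of all genes tested. TFAM-OE replicate 2 was the lowest of its group for C1R, C1S, SERPING1, C3 and CFB. In that group CD46 was lowest in replicate 1, and CD55 and CD59 in replicate 3. The share of all genes lowest in TFAM-OE replicate 2 was not computed, so this count has no background. For the abundant members the spread exceeded counting error. For C1R the control libraries varied by 16.1% (coefficient of variation of CPM), where counting error alone would give 1.07%. For CFB the values were 11.3% and 16.2% in the control and 22.9% and 21.0% in TFAM-OE, so that spread and counting error were of like size.

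**Figure D5:**
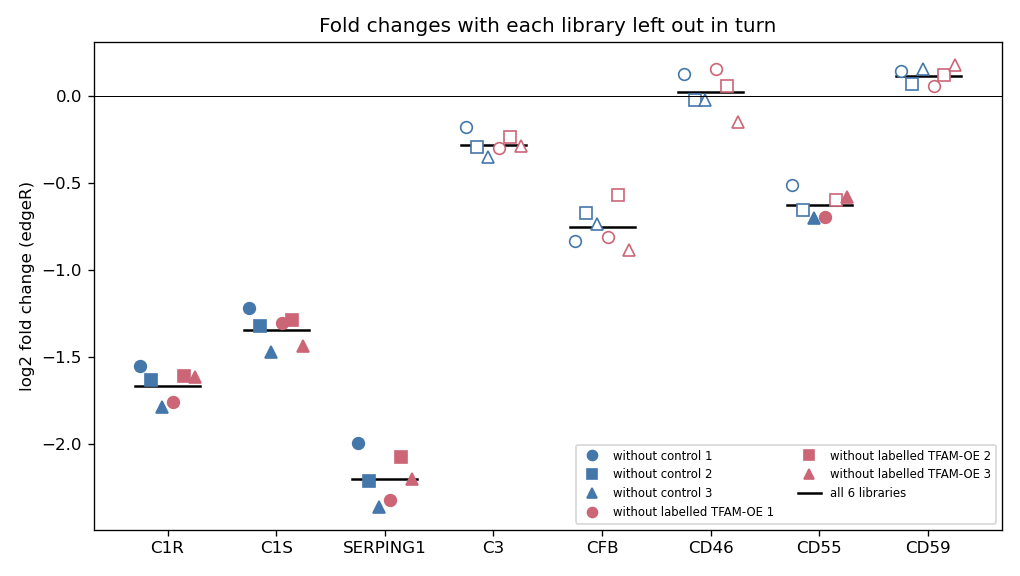
Log2 fold change (y axis, edgeR) of the 8 tested members (x axis) with each library left out in turn, as named in the legend, beside the value from all 6 libraries as a black line. Filled marks passed an adjusted p of 0.05. C1R, C1S and SERPING1 are filled throughout, CD55 is filled in 3 of 6 fits, and CD46 lies on both sides of 0.

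Transcripts of other cell types were low in these libraries. The leukocyte and macrophage list summed to 2.97 to 3.53 FPKM in the control and 3.04 to 3.55 FPKM in TFAM-OE, with 2 of 8 genes at 1 FPKM or more, and its defining gene PTPRC had 1 read in TFAM-OE replicate 3 and 0 in the other 5 libraries. CD68 of that list was lower (log2 fold change -1.21, adjusted p = 0.0152 in edgeR) and CD14 higher (log2 fold change 1.10, adjusted p = 0.00565 in edgeR). The fibroblast list summed to 2.33 to 2.54 and 2.83 to 3.29 FPKM, of which THY1 was the 1 gene of 7 at 1 FPKM or more and was higher (log2 fold change 0.59, adjusted p = 0.0415 in edgeR), while DCN had 1 read in each of 2 libraries and COL1A2 had no row in the tables used here. The hepatocyte list summed to 0.25 to 0.36 and 0.14 to 0.21 FPKM, with 0 of 6 genes at 1 FPKM and no row for APOB, and the endothelial list to at most 0.11 FPKM.

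Of the promoter matches printed above, the C1R match belongs to a gene that fell, and those of CFB and CD59 to genes that did not pass the test. Counts are per gene, so transcripts from single start sites were not measured. The CFB result also depends on the reads of the readthrough gene, as given above. C1S and SERPING1, which fell, and C3, which did not pass, had no window. CD55, which fell, CD46, which did not pass, and CFI, which was not tested, had none of the 3 motifs in their windows. These are matches of letters in a short window and say nothing of binding.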

How the data were processed

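Polyadenylated RNA of 6 libraries was analysed, grouped by their labels. After trimming, the authors mapped reads to GRCh38 using TopHat2 and turned reads with a unique position into gene counts and FPKM values. They deposited a raw count and an FPKM value per gene and library, without pooling replicates. No source used here names the counting program or annotation, or says whether strand was used, so reads of overlapping genes may have been split. Unused value columns numbered 0.

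The main test was edgeR's quasi-likelihood F-test (version 4.0.16 in R 4.3.3), two-sided, after TMM scaling and filterByExpr (minimum count 10), with Benjamini-Hochberg adjustment over all 16555 genes kept. Log2 fold changes are TFAM-OE over control. The filter was applied because edgeR fitted no gene-wise spread without it (infinite prior degrees of freedom), against 5.98 prior degrees of freedom with it. Means and SDs are of deposited FPKM, and groups were compared for overlap in TMM-scaled CPM. The members and lists were chosen with earlier results of these data known. All 9 members are named, together with the listed pathway genes that passed or averaged at least 1 FPKM in a group, and any gene on which a result turned. A gene of the pathway list fixed at the outset is not reported here and is left out of that list's counts. Coordinates are from GENCODE 44 and promoters from RefSeq. The other fits used edgeR's exact test, DESeq2 (1.42.0), and limma (3.58.1) as voom on counts and as trend on log2(FPKM + 0.1) or log2(FPKM + 1), with other scalings and filters, each library left out, replicate numbers as a block, and a fold of at least 2. Intervals cover 95%. Motifs, ratios and figures used Python (3.11.15), numpy (2.4.6), pandas (2.3.3) and matplotlib (3.10.9). Reads carry no molecular identifiers, so counting errors are a lower limit.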

Additional observations from a re-analysis of the deposited data

How the results depend on the processing

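C1R and C1S were lower and passed in all 18 alternatives, and SERPING1 in all 17 that could test it. Its log2 fold change ranged from -2.37 to -0.42, the smallest size coming from log2(FPKM + 1), which shrinks scarce genes. CD55 passed in 14 of 18, and besides the left-out libraries it lost its call in limma-trend on unfiltered FPKM (adjusted p = 0.0523), as did the readthrough gene ENSG00000244255 (adjusted p = 0.0528). The members lower numbered 3 to 4 with each library left out, 3 when a fold of at least 2 was also required, 3 with at least 10 reads in every library, and 0 members were higher in any setting. CD46, which passed in none, was negative in 6 and positive in 12 of 18 alternatives. No member that passed changed sign in these alternatives. Of the other pathway genes reported, the count lower ranged from 0 to 1 with each library left out, with 1 without control replicate 3 (COLEC11) or TFAM-OE replicate 1 (CR1L), and was 0 in the other alternatives. The count higher was 1 (CFD) in DESeq2, edgeR's exact test, edgeR without a filter and limma-trend on log2(FPKM + 0.1) and log2(FPKM + 1), and ranged from 0 to 1 with each library left out, with 1 without TFAM-OE replicate 3. The cause of these moves was not tested. The motif counts of the members were the same in the 250 bases before the start.

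Genes lower and higher among all tested numbered 796 and 576, and 1485 and 1034 without a filter. They were 293 and 160 in limma-trend on unfiltered FPKM. DESeq2 gave 1105 and 932 and the exact test 1236 and 980. The counts were 252 and 90 without control replicate 1, 240 and 66 without control replicate 2, 262 and 89 without TFAM-OE replicate 2, and 1786 and 1428 without TFAM-OE replicate 3.

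The main test did not take the replicate numbers as pairs. The deviations of same-numbered libraries correlated at -0.303, 0.0362 and -0.358 across genes. Control replicate 3 with TFAM-OE replicate 1 gave 0.338, and control replicate 1 with TFAM-OE replicate 3 gave 0.337. The remaining combinations lay between -0.09 and 0.0632. Some libraries with different numbers thus varied alike across the groups, and the source of this was not tested. Deviations from a group mean cancel within the group, so these correlations are tied together and are not separate observations. With the replicate number as a block, 4 members were lower and 0 higher, the other pathway genes numbered 0 lower and 0 higher, and all genes 285 lower and 74 higher. Depth limits CFI, CFB and SERPING1, which had at most 6, 44 and 58 reads.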
